A study of Mus musculus with 10 samples.

Results

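The B lymphocyte lineage was followed in all groups of the study through 7 genes: the transcription factor genes Ebf1 and Pax5, the surrogate light chain genes Vpreb1 and Igll1, the receptor signalling chain genes Cd79b and Cd79a, and Ms4a1, which encodes the surface protein CD20. They were chosen by name as the probes that the array annotation assigns to these symbols, which gave 7 genes with 9 probes among 55681 probes in all, and Cd79a and Pax5 have 2 probes each. All 7 genes passed the filter on dim probes and so were among the 32209 genes or unnamed transcripts tested. No fitted difference of any of the 7 genes between hybrid and unfused cells passed the adjusted threshold of 0.05 in any of the comparisons.

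RNA came from cells sorted out of the midbrain of mice treated with the dopaminergic neurotoxin MPTP and grafted on day 3 after its last injection, on one side, with lineage-negative haematopoietic stem and progenitor cells (HSPCs). Cells were sorted 1 week after the graft into red and yellow (RFP+YFP+) hybrids, which are graft cells fused with recipient cells, and red-only (RFP+) cells, called unfused here. R26Y hybrids came from HSPCs carrying Cre and RFP in R26Y recipients, whose YFP reporter is switched on by Cre. GFAP-Cre hybrids and FoxA2-Cre hybrids came from RFP+ HSPCs with the R26Y reporter in recipients that express Cre from the Gfap promoter, active in astrocytes, or from the Foxa2 promoter, active in ventral midbrain cells. Unfused cells were pooled over R26Y and GFAP-Cre recipients for the first unfused group and came from FoxA2-Cre recipients for the second. All 5 groups had MPTP and a graft, each group has 2 arrays, and each array holds RNA of 2 pooled mice, amplified from the whole transcriptome before 500 ng of cDNA was labelled. Since YFP in GFAP-Cre and FoxA2-Cre recipients reports fusion with Cre-expressing cells only, red-only cells there may hold graft cells fused with other recipient cells. The labels do not give the age, sex or strain of the mice.

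B lymphocytes arise in bone marrow from lymphoid progenitors. EBF1 and PAX5 switch on the B-cell programme, and pro-B cells then make VpreB and lambda5 (from Vpreb1 and Igll1), which stand in for a light chain and pair with the immunoglobulin heavy chain to form the pre-B receptor. That receptor and the later B-cell receptor signal through Ig-alpha and Ig-beta (from Cd79a and Cd79b), and CD20 marks later stages. Lineage depletion of bone marrow removes committed B cells through their B220 antigen along with other mature cells, and neither Ebf1 nor Pax5 is limited to B cells: Ebf1 is also transcribed in some neurons and vessel mural cells, and Pax5 at the midbrain-hindbrain boundary of the embryo.

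Probe sequences are shown where a result below depends on which stretch of the transcript was read, as the array annotation gives them, in lower case with no base marked. Positions are on mouse genome build mm9, and a span longer than the probe's 60 bases means that the probe crosses a spliced-out stretch. The Igll1 probe and both Pax5 probes were bright on every array, and the Cd79a probe is the member of a discordant pair that lies at the gene's own chromosome.
Igll1 (chr16:16861104-16861163, minus strand): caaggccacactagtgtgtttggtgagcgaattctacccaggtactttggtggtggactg
Pax5 first probe (chr4:44658421-44658480, minus strand): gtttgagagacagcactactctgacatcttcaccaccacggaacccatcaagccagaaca
Pax5 second probe (chr4:44550354-44582908, minus strand): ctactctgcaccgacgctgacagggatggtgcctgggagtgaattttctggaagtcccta
Cd79a second probe (chr7:25684357-25684614, plus strand): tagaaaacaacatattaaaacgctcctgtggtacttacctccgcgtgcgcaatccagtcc
The second Pax5 probe spans 32555 bases and the second Cd79a probe spans 258 bases. The first Cd79a probe is annotated to chr12:53180558-53180617, away from chromosome 7, where RefSeq places Cd79a, and ends in a run of 6 A. The other probes are at chr16:16868559-16868618 for Vpreb1 and chr11:106172780-106172839 for Cd79b, both on the minus strand, at chr11:44818438-44818497 on the plus strand for Ebf1, and at chr19:11325367-11325426 on the minus strand for Ms4a1. None of the 9 probes shares a run of 20 bases with a probe of another gene, which 14.6% of all probes do.

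Levels are log2 of the background-subtracted signal after subtraction of each array's 75th percentile, which was taken over the 9364 spots that were well above background on all 10 arrays, so that a level of 0 is that percentile and 1 unit is 2-fold. Well above background is the scanner software's own mark. The 6 arrays of R26Y hybrids, GFAP-Cre hybrids and pooled unfused cells share a slide and a scan, and the 4 FoxA2-Cre arrays share another, so slide, scan and recipient set cannot be told apart and levels were not tested across slides. Spots well above background made up 81.4% to 86.7% on the first slide except on R26Y hybrid replicate 2 (64.3%), and 19.8% to 49.2% on the FoxA2-Cre slide, where the hybrid arrays (34.6% and 19.8%) were dimmer than the unfused ones (49.2% and 34.8%). The lowest level of a spot well above background lay between -7.84 and -6.61 on the first slide and between -6.47 and -3.48 on the second. No spot was saturated. Ptprc, the gene of the pan-leukocyte antigen CD45, was well above background on all 10 arrays, with group means between -3.02 and -2.88. Kit, a stem and progenitor cell receptor gene, was well above background on the 6 arrays of the first slide and on FoxA2-Cre unfused replicate 1, and the astrocyte filament gene Gfap on the 6 arrays of the first slide alone. There the Gfap means were -4.47 in R26Y hybrids, -3.82 in GFAP-Cre hybrids and -2.68 in pooled unfused cells. In RNA from sorted populations, fewer cells of a type and less RNA per cell cannot be told apart. The labels name replicates without saying that they come from separate experiments, so the p-values measure the spread between these pools, which may in part be technical. The deposited file of FoxA2-Cre unfused replicate 2 carries in its name the sample number that the labels give to R26Y hybrid replicate 2, and it was used under the sample it was deposited with.

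**Figure D1:**
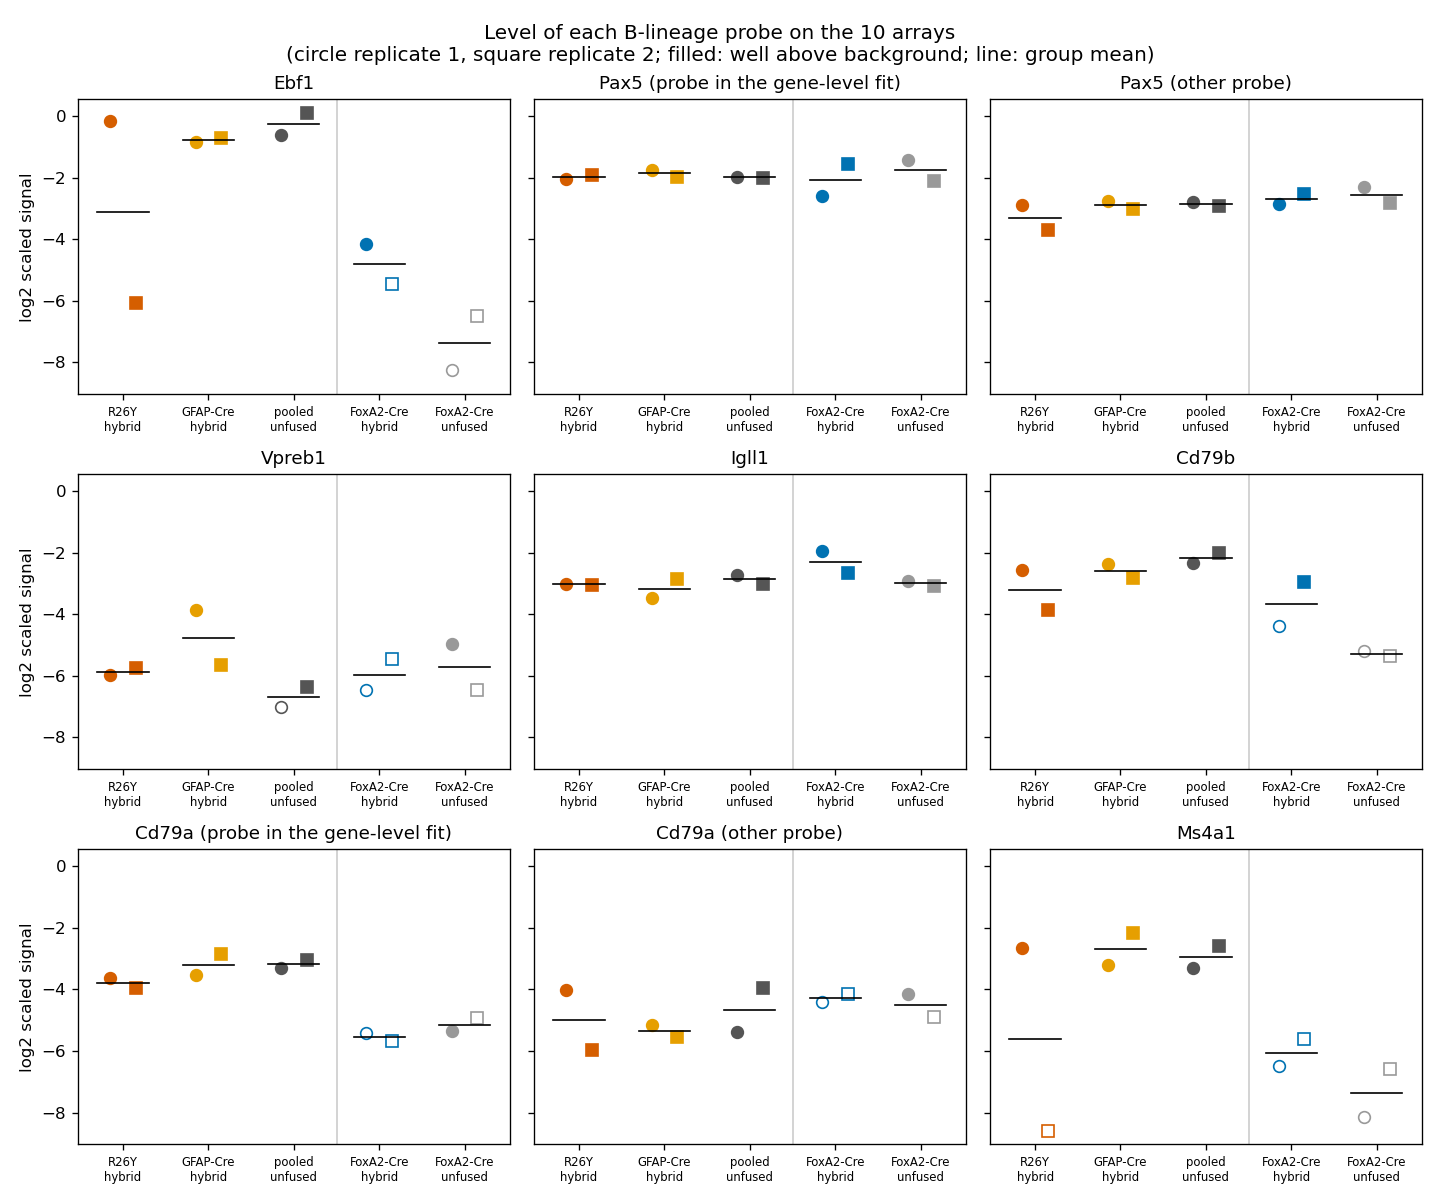
Level of each of the 9 probes (log2 scaled signal, vertical axis) on the 10 arrays by group, with replicate 1 as a circle, replicate 2 as a square, filled symbols for spots well above background, and a line at the group mean; the grey vertical line separates the slides. Pax5 and Igll1 lie within a narrow band on all arrays, and Ebf1 and Ms4a1 on R26Y hybrid replicate 2 lie far below the other 5 arrays of their slide.

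Ebf1, the gene of the factor that specifies the B lineage, was measured at -0.17 and -6.08 in R26Y hybrids, at -0.83 and -0.72 in GFAP-Cre hybrids and at -0.61 and 0.11 in pooled unfused cells. On the FoxA2-Cre slide it was at -4.17 and -5.46 in hybrids and at -8.24 and -6.48 in unfused cells. Thus 5 of the 6 arrays of the first slide were between -0.83 and 0.11, and R26Y hybrid replicate 2 was alone far below them, although its spot was still well above background. On the FoxA2-Cre slide the spot was well above background on hybrid replicate 1 alone, so the other 3 values there have no order. From high to low the group means ran pooled unfused, GFAP-Cre hybrid, R26Y hybrid, FoxA2-Cre hybrid and FoxA2-Cre unfused. Neighbours among the first 4 did not differ by more than the sum of their SDs, and the FoxA2-Cre unfused cells, not well above background on either array, have only an upper bound.

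Pax5, the gene of the factor that holds cells in the B lineage, was well above background on all 10 arrays with both probes. Its first probe stood at -2.04 and -1.92 in R26Y hybrids, -1.77 and -1.97 in GFAP-Cre hybrids, -2.01 and -1.98 in pooled unfused cells, -2.61 and -1.55 in FoxA2-Cre hybrids, and -1.42 and -2.11 in FoxA2-Cre unfused cells. The group means fell between -2.08 and -1.76, and no neighbours in their order differed by more than the sum of their SDs. The second probe, which reads a different part of the transcript, ranged from -3.71 on R26Y hybrid replicate 2 to -2.30 on FoxA2-Cre unfused replicate 1. Neighbouring groups overlapped with this probe as well.

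Vpreb1, which encodes the VpreB part of the surrogate light chain, was near the floor of the arrays. It was at -5.98 and -5.74 in R26Y hybrids, -3.88 and -5.65 in GFAP-Cre hybrids, -7.00 and -6.36 in pooled unfused cells, -6.47 and -5.45 in FoxA2-Cre hybrids, and -4.98 and -6.47 in FoxA2-Cre unfused cells. The spot was well above background on 6 of the 10 arrays: on all 4 hybrid arrays of the first slide, on pooled unfused replicate 2 and on FoxA2-Cre unfused replicate 1. All 4 of those hybrid arrays were higher than both pooled unfused arrays, while the FoxA2-Cre groups overlapped. The means ran from GFAP-Cre hybrids through FoxA2-Cre unfused cells, R26Y hybrids and FoxA2-Cre hybrids to pooled unfused cells, and no neighbours in this order differed by more than the sum of their SDs.

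Igll1, the lambda5 gene and partner of Vpreb1, was well above background on every array. Its levels were -3.01 and -3.04 in R26Y hybrids, -3.49 and -2.86 in GFAP-Cre hybrids, -2.72 and -3.01 in pooled unfused cells, -1.94 and -2.66 in FoxA2-Cre hybrids, and -2.92 and -3.08 in FoxA2-Cre unfused cells. The FoxA2-Cre hybrids had the highest mean (-2.30), and both of their arrays lay above both FoxA2-Cre unfused arrays. In the authors' deposited matrix, scaled in the same way, those hybrid arrays (-1.96 and -2.86) overlapped the unfused ones (-2.52 and -2.57). The step from the FoxA2-Cre hybrids to the next mean, that of pooled unfused cells on the other slide, was 0.57 against a sum of SDs of 0.71. The other 4 group means fell between -3.18 and -2.87, and no step in the order was larger than the sum of the SDs.

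Cd79b, the gene of Ig-beta, was well above background on all 6 arrays of the first slide. It was at -2.56 and -3.85 in R26Y hybrids, -2.37 and -2.83 in GFAP-Cre hybrids, -2.35 and -2.01 in pooled unfused cells, -4.38 and -2.96 in FoxA2-Cre hybrids, and -5.18 and -5.37 in FoxA2-Cre unfused cells. On the first slide all 4 hybrid arrays were below both pooled unfused arrays, and R26Y hybrid replicate 2 was the lowest. GFAP-Cre hybrid replicate 1 (-2.37) was barely below pooled unfused replicate 1 (-2.35). In the authors' deposited matrix, scaled in the same way, that hybrid array lay above that unfused array (-2.24 against -2.47). In FoxA2-Cre recipients the hybrids were above the unfused cells on both of their arrays, but the spot was well above background on hybrid replicate 2 alone. The group means ran from pooled unfused cells through GFAP-Cre hybrids and R26Y hybrids to FoxA2-Cre hybrids, with no step above the sum of the SDs, and the FoxA2-Cre unfused cells, which come last, have only an upper bound.

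Cd79a, the gene of Ig-alpha, was read by 2 probes that did not follow each other. The first probe gave -3.63 and -3.94 in R26Y hybrids, -3.54 and -2.86 in GFAP-Cre hybrids, -3.30 and -3.06 in pooled unfused cells, -5.42 and -5.69 in FoxA2-Cre hybrids, and -5.36 and -4.94 in FoxA2-Cre unfused cells. The second probe gave -4.02 and -5.97, -5.14 and -5.55, -5.38 and -3.97, -4.42 and -4.14, and -4.15 and -4.89 in the same groups in the same order. Each probe was well above background on 7 arrays, the 6 of the first slide and FoxA2-Cre unfused replicate 1. The group means of the first probe ran from pooled unfused cells through GFAP-Cre hybrids, R26Y hybrids and FoxA2-Cre unfused cells to FoxA2-Cre hybrids, and the step between the slides, of 1.36 against a sum of SDs of 0.52, alone went past that sum. With the first probe the FoxA2-Cre arrays were all below the other 6, and with the second all 5 groups lay within one another's range apart from GFAP-Cre hybrids against the FoxA2-Cre groups, so the statement on Cd79a depends on the probe. The first probe, with the higher mean, stood for the gene in the tests, and its annotated position is not at Cd79a.

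Ms4a1, the CD20 gene, was at -2.65 and -8.60 in R26Y hybrids, -3.22 and -2.17 in GFAP-Cre hybrids, -3.30 and -2.61 in pooled unfused cells, -6.49 and -5.61 in FoxA2-Cre hybrids, and -8.16 and -6.60 in FoxA2-Cre unfused cells. It was well above background on 5 arrays, all on the first slide, and R26Y hybrid replicate 2 was not among them. On those 5 arrays the levels lay between -3.30 and -2.17, and the 3 groups overlapped. On the FoxA2-Cre slide no array measured Ms4a1, so its values there have no order and no fold is given. The means of the first slide ran from GFAP-Cre hybrids through pooled unfused cells to R26Y hybrids, with no step above the sum of the SDs.

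In R26Y hybrids against pooled unfused cells, the comparison that asks how graft cells fused with any recipient cell type differ from unfused graft cells, 0 of the 7 genes passed the test with limma, as did 0% of the 32209 genes. The fitted log2 differences ± SE were -2.87 ± 1.68 for Ebf1, -2.67 ± 1.68 for Ms4a1, -1.03 ± 0.68 for Cd79b, -0.60 ± 0.51 for Cd79a, -0.16 ± 0.51 for Igll1, 0.02 ± 0.55 for Pax5 and 0.82 ± 0.80 for Vpreb1, each with a limma adjusted p of 1.00. None had an unadjusted p under 0.05, against 1.41% of all genes. The 95% confidence interval of Ebf1 ran from -6.76 to 1.01 and that of Ms4a1 from -6.56 to 1.22, whereas that of Pax5 ran from -1.27 to 1.30. In 1 gene (Vpreb1) both hybrid arrays were above both unfused arrays, against 10.1% of all genes, and in 3 genes (Cd79a, Cd79b and Igll1) both were below, against 20.3%, which for Igll1 rests on replicates as close as -3.01 and -3.01. The median over the 7 genes was -0.60, and over all genes -0.26. The sign for Cd79a and Igll1 depended on the scaling, with 0.01 and 0.39 after quantile normalization.

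The Ebf1 and Ms4a1 values of the R26Y comparison rest on the second replicate. Ms4a1 was not well above background on that array, so its differences and gap that use the array are not measured sizes. In the authors' deposited matrix, scaled in the same way, the 2 replicates stood at -0.05 and -3.95 for Ebf1. For Ms4a1 they stood at -2.58 and -4.85. Between the R26Y hybrid replicates, Ebf1 differed by -5.91 and Ms4a1 by -5.95 (replicate 2 minus replicate 1), gaps that 2.26% and 2.18% of all genes reached in either direction, while the gap was -1.29 for Cd79b, -0.32 for Cd79a, 0.24 for Vpreb1, 0.12 for Pax5 and -0.03 for Igll1. Without R26Y hybrid replicate 2, the Ebf1 difference was 0.08 and that of Ms4a1 was 0.31, both with a limma adjusted p of 1.00. Leaving out R26Y hybrid replicate 1 leaves the dim array alone in its group and assumes that it varies like the other groups. The Ebf1 difference was then -5.83 and that of Ms4a1 -5.65, the latter from a spot not above background. The median absolute gap between replicates over all genes was 1.07 in R26Y hybrids, 0.52 in GFAP-Cre hybrids, 0.33 in pooled unfused cells, 1.00 in FoxA2-Cre hybrids and 0.89 in FoxA2-Cre unfused cells. In those other 4 groups the gaps of the 7 genes stayed between -1.77 (Vpreb1, GFAP-Cre hybrids) and 1.76 (Ebf1, FoxA2-Cre unfused).

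**Figure D2:**
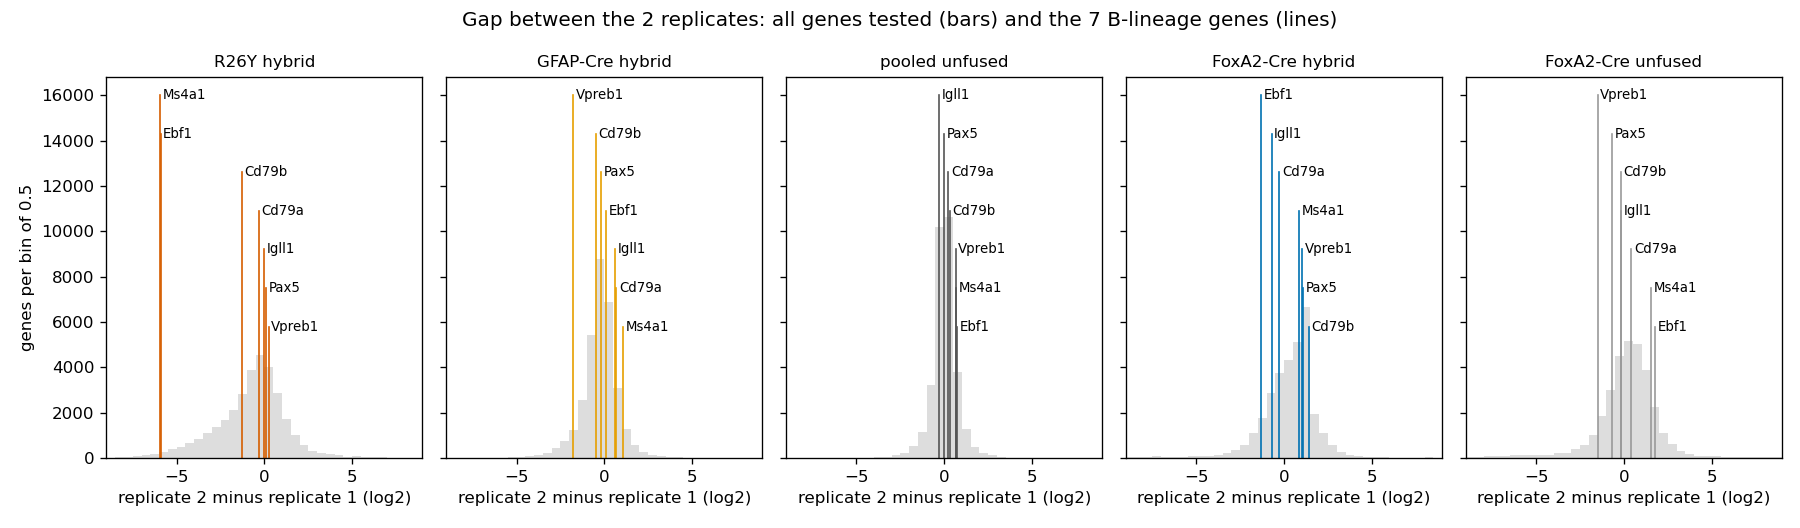
Replicate 2 minus replicate 1 (log2, horizontal axis) in each of the 5 groups, for all genes tested as grey bars (genes per bin of 0.5, vertical axis) and for the 7 genes as coloured lines, whose heights only keep the names apart. In R26Y hybrids Ms4a1 (-5.95) and Ebf1 (-5.91) lie in the far left tail of the bars, and in the other groups all 7 genes lie within the bulk. Ms4a1 was not well above background on R26Y hybrid replicate 2, so its gap there is not a measured size.

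GFAP-Cre hybrids were set against the same 2 pooled unfused arrays, so this comparison is not independent of the R26Y one. Here too 0 of the 7 genes passed the limma test, as did 0% of all genes. Vpreb1 had the largest fitted difference, 1.92 ± 0.80 (SE; 95% confidence interval 0.05 to 3.78), with a limma adjusted p of 1.00. It was the only 1 of the 7 with an unadjusted p under 0.05, against 1.63% of all genes, and its unfused level was well above background on 1 of 2 arrays. The difference was 1.03 without GFAP-Cre hybrid replicate 1 and 2.80 without replicate 2, 0.84 with normexp, 1.57 after quantile normalization and 0.85 in the authors' deposited matrix, and with these 3 scalings the unadjusted p was no longer under 0.05. The differences were -0.52 ± 1.68 for Ebf1, -0.42 ± 0.68 for Cd79b, -0.31 ± 0.51 for Igll1, 0.26 ± 1.67 for Ms4a1, 0.13 ± 0.55 for Pax5 and -0.02 ± 0.51 for Cd79a. Both hybrid arrays were above both unfused arrays for Vpreb1 and Pax5, against 20.2% of all genes, and below for Cd79b and Ebf1, against 14.2%. For Pax5 this rests on levels as close as -1.97 and -1.98, and its second probe overlapped. For Cd79b it rests on -2.37 and -2.35, and the arrays overlapped in the authors' deposited matrix. The median of the 7 genes was -0.02 and that of all genes 0.04.

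In FoxA2-Cre hybrids against FoxA2-Cre unfused cells, 0 of the 7 genes passed the limma test, while 0.531% of all genes did. Cd79b had the smallest p: its mean was -3.67 in hybrids and -5.28 in unfused cells, which is a difference of 1.60 ± 0.68 (SE; 95% confidence interval 0.03 to 3.18) with a limma adjusted p of 0.574. It was the only 1 of the 7 with an unadjusted p under 0.05, which 8.66% of all genes had. Cd79b was well above background on 1 of 2 hybrid arrays and on neither unfused array, so no fold is given. Its difference was 1.00 with normexp background correction, 1.01 after quantile normalization and 0.026 in the authors' deposited matrix, and it was 0.90 without FoxA2-Cre hybrid replicate 2, the array that measured it. Ebf1 had means of -4.82 and -7.36 and a fitted difference of 2.55 ± 1.68 (limma adjusted p = 0.671), again with 1 of 2 hybrid arrays and neither unfused array well above background, and -0.34 in the authors' deposited matrix, opposite in sign. Igll1, measured on all 4 arrays, differed by 0.70 ± 0.51 (95% confidence interval -0.50 to 1.89, limma adjusted p = 0.695). Pax5, also measured on all 4 arrays, differed by -0.32 ± 0.55 (95% confidence interval -1.60 to 0.97). Vpreb1 at -0.23 ± 0.80 and Cd79a at -0.41 ± 0.51 were measured on 1 unfused array and no hybrid array. Both hybrid arrays were above both unfused arrays for 4 genes (Cd79b, Ebf1, Igll1 and Ms4a1), against 26.7% of all genes, and below for 1 (Cd79a), against 10.5%, but of these only Igll1 was measured on all 4 arrays and Ms4a1 was measured on none, so its values have no order. The lowest level measured was also higher on the hybrid arrays (-5.03 and -3.48) than on the unfused ones (-6.47 and -4.92). The median over the 7 genes was 0.70 and over all genes 0.37, and the latter was -0.44 after quantile normalization.

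**Figure D3:**
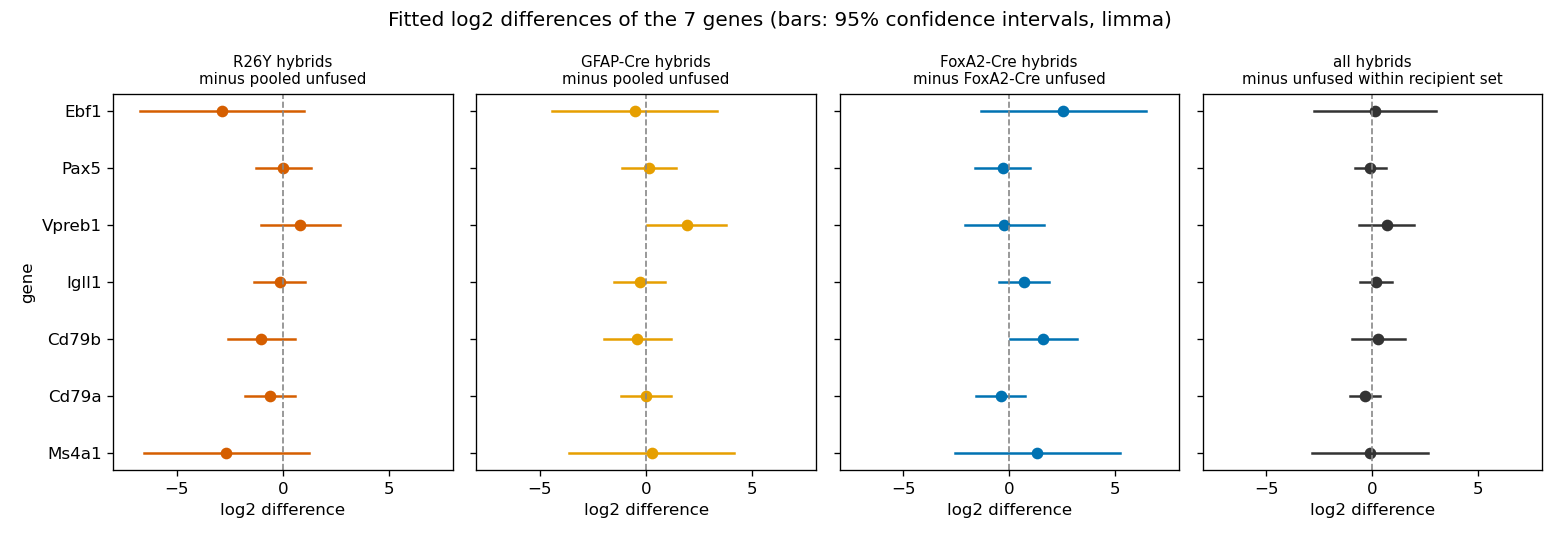
Fitted log2 differences of the 7 genes (horizontal axis) with 95% confidence intervals from limma, for R26Y hybrids, GFAP-Cre hybrids, FoxA2-Cre hybrids and all hybrids, each against unfused cells. The intervals of Ebf1 and Ms4a1 are the widest in each panel, and those that leave out 0 are Vpreb1 in GFAP-Cre hybrids and Cd79b in FoxA2-Cre hybrids, neither of which passed after adjustment. Ms4a1 was not measured on the FoxA2-Cre arrays, so its interval there rests on values under background, and its interval over all hybrids does so in part.

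Whether the hybrid effect differed between recipient sets was tested as the FoxA2-Cre effect minus the mean of the R26Y and GFAP-Cre effects. The difference was 2.33 ± 0.90 for Cd79b (limma adjusted p = 0.832), 4.25 ± 2.22 for Ebf1, 0.93 ± 0.68 for Igll1, -0.10 ± 0.67 for Cd79a, -0.39 ± 0.73 for Pax5 and -1.60 ± 1.06 for Vpreb1. The Ms4a1 value is left out here because it was well above background on none of the FoxA2-Cre arrays. Cd79b, Ebf1, Cd79a and Vpreb1 were well above background on 1 of those 4 arrays, so their values rest in part on spots not above background. The Ebf1 value also takes in R26Y hybrid replicate 2, at -6.08. In the authors' deposited matrix the Cd79b and Ebf1 values were much smaller, with the same sign. There the FoxA2-Cre hybrids (-3.42 and -2.76) overlapped the FoxA2-Cre unfused cells (-3.03 and -3.21) for Cd79b. In the fit 0 of 7 genes passed with limma, against 0.0931% of all genes, and 1 of 7 (Cd79b) had an unadjusted p under 0.05, against 5.67%. Cd79b was lower in both hybrid groups of the first slide and higher in FoxA2-Cre hybrids in its fitted values, and that contrast did not pass over all genes.

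Over all 6 hybrid and 4 unfused arrays with the recipient set as a covariate, 0 of the 7 genes passed the limma test, as did 0% of all genes. The differences ran from -0.35 ± 0.32 for Cd79a to 0.68 ± 0.58 for Vpreb1, with 0.28 ± 0.56 for Cd79b, 0.17 ± 0.34 for Igll1, 0.12 ± 1.29 for Ebf1, -0.09 ± 0.33 for Pax5 and -0.12 ± 1.22 for Ms4a1. On the FoxA2-Cre slide Ms4a1 was well above background on no array, and Ebf1, Cd79b, Cd79a and Vpreb1 on 1 of 4, so these values rest in part on spots not above background. None had an unadjusted p under 0.05, against 3.12% of all genes. The precision differed between the genes. For this average effect over the hybrid groups, in the main scaling, the 95% confidence intervals of Pax5 (-0.83 to 0.64) and Igll1 (-0.59 to 0.92) leave out a 2-fold change. That of Ebf1 ran from -2.76 to 3.00. Single hybrid groups are less certain: in FoxA2-Cre hybrids the interval was -1.60 to 0.97 for Pax5 and -0.50 to 1.89 for Igll1, so a 2-fold change is not left out there.

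Tested on its own, the second Cd79a probe differed by -0.32 ± 0.80 in R26Y hybrids, -0.67 ± 0.80 in GFAP-Cre hybrids and 0.23 ± 0.80 in FoxA2-Cre hybrids, so that the sign in FoxA2-Cre hybrids was opposite to that of the first probe. The second Pax5 probe differed by -0.45 ± 0.55, -0.04 ± 0.55 and -0.14 ± 0.55 in the same comparisons. None of these probe tests passed the threshold after adjustment over all probes.

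Other genes of the B lineage were followed as 4 lists. The first holds the pre-B receptor and recombination genes, with 10 of 15 listed genes tested; Prkdc and Lig4 were below the filter and Ighm, Ighd and Igj were not analysed here. None of the 10 passed the limma test in any comparison. At an unadjusted p under 0.05 there were none in R26Y or GFAP-Cre hybrids, against 1.41% and 1.63% of all genes. There was 1 gene in each direction in FoxA2-Cre hybrids, against 8.66% of all genes. In FoxA2-Cre hybrids these were Xrcc6, a subunit of the Ku complex that joins DNA ends, at -1.76 ± 0.55 (limma adjusted p = 0.431), and Rag1, a subunit of the V(D)J recombinase, at 2.00 ± 0.85 (limma adjusted p = 0.574). Rag1 was well above background on 1 of 2 arrays in each FoxA2-Cre group. Dntt, the gene of terminal transferase, which adds bases at the joins, was well above background on all 10 arrays and differed by -0.38 ± 0.49 in FoxA2-Cre hybrids. Vpreb2, a close relative of Vpreb1, was well above background on all 10 arrays and differed by 1.54 ± 1.25 in GFAP-Cre hybrids (limma adjusted p = 1.00). The list medians were -0.48, 0.09 and -0.04 in R26Y, GFAP-Cre and FoxA2-Cre hybrids, beside -0.26, 0.04 and 0.37 for all genes.

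Among B-cell surface genes, 18 of 22 were tested, and none passed the limma test in any comparison. Il7r, the gene of the interleukin-7 receptor chain that early B progenitors need, had the smallest p in GFAP-Cre hybrids, with a limma adjusted p of 1.00. It was well above background on both pooled unfused arrays and on no other array, so that its fitted -2.63 ± 0.79 rests on hybrid values not above background. Cd40, a costimulatory receptor gene, had the smallest p over all hybrids, at 1.56 ± 0.63 (limma adjusted p = 0.999). Fcrl5 and Cd37, both well above background on all 10 arrays, differed by -1.64 ± 0.77 and -1.89 ± 0.93 in FoxA2-Cre hybrids (limma adjusted p = 0.596 and 0.606). The list medians were -0.04, 0.11 and -0.26 in the R26Y, GFAP-Cre and FoxA2-Cre comparisons.

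All 22 listed genes of B-cell receptor signalling, the chain that CD79 proteins feed, were tested and none passed with limma. In FoxA2-Cre hybrids 1 of the 22 was higher and 2 were lower at an unadjusted p under 0.05, which 8.66% of all genes had. The higher one was Malt1, a protease of the pathway to NF-kappaB, at 2.16 ± 0.83 (limma adjusted p = 0.529). The lower ones were Blk, a Src-family kinase of B cells, at -1.74 ± 0.65, and Prkcb, a protein kinase C, at -3.61 ± 1.43 (limma adjusted p = 0.516 and 0.545). Malt1 was well above background on 4 of the 10 arrays, and Blk and Prkcb on 8. None reached that level in R26Y or GFAP-Cre hybrids, where Fyn and Ptpn6 had the smallest p but were well above background on 2 and 4 of the 10 arrays, so their differences are not given. The list medians were 0.04, 0.04 and 0.65.

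All 20 listed B-lineage transcription factor genes were tested, and none passed with limma. Xbp1, a plasma cell and secretory factor gene, had the smallest p, at -5.57 ± 1.56 in FoxA2-Cre hybrids (limma adjusted p = 0.355) and -3.78 ± 1.09 over all hybrids (limma adjusted p = 0.999). Irf4 at 2.70 ± 1.18 and Bach2 at 4.60 ± 2.24 came next in FoxA2-Cre hybrids. These rest in part on spots not above background, since Xbp1 and Bach2 were well above it on 6 and Irf4 on 4 of the 10 arrays. In R26Y hybrids 2 of the 20 had positive fitted values, with a median of -0.64 against -0.26 for all genes. Mef2c, at -1.93 ± 0.81, was the only 1 there with an unadjusted p under 0.05 (limma adjusted p = 1.00), against 1.41% of all genes. It was well above background on 5 of the 10 arrays. The list medians in GFAP-Cre and FoxA2-Cre hybrids were -0.01 and 0.20.

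**Figure D4:**
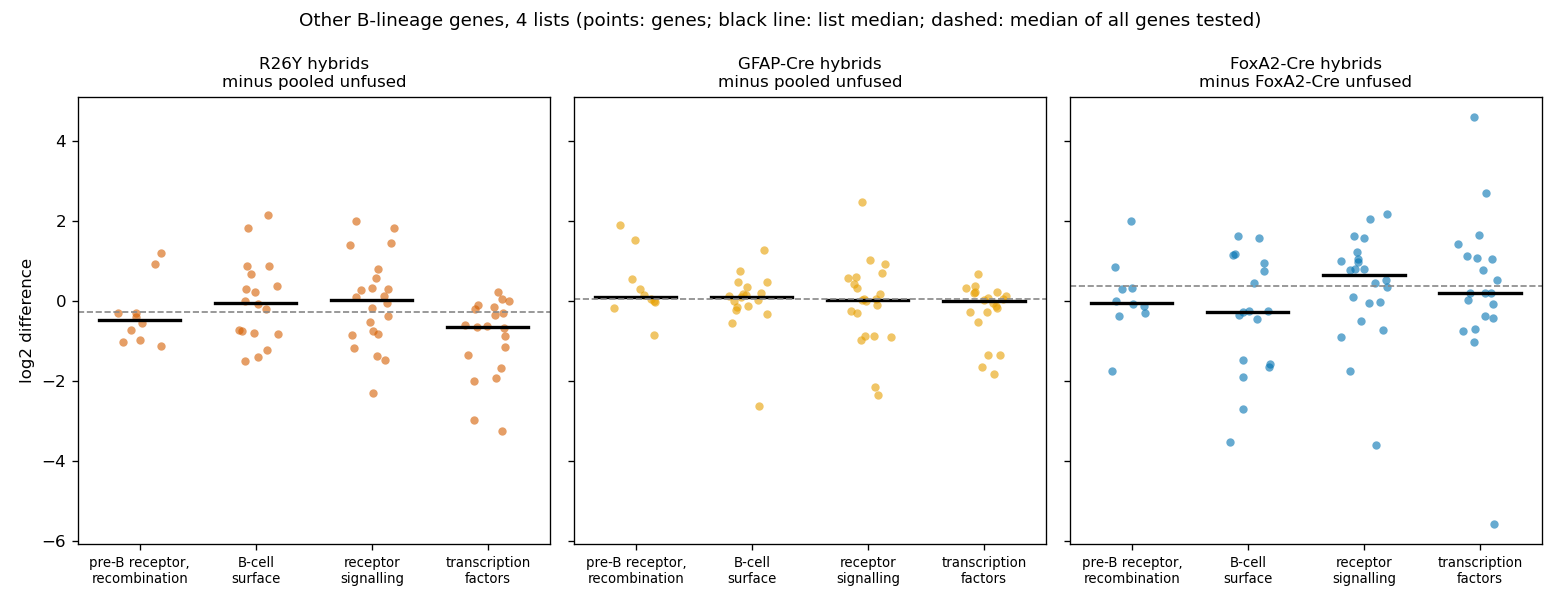
Fitted log2 differences (vertical axis) of the other B-lineage genes in 4 lists, 1 point per gene, with the list median as a black line and the median of all genes tested as a dashed line, for R26Y, GFAP-Cre and FoxA2-Cre hybrids against unfused cells. Every list has points on both sides of 0. In R26Y hybrids only 2 of 20 transcription factor genes and 2 of 10 pre-B receptor and recombination genes lie above 0. The lowest point is Xbp1 (-5.57) in FoxA2-Cre hybrids.

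Markers of other blood and brain cells were read beside these genes, and their part in the results was not tested. The summed level of the 7 genes (log2 of the summed linear levels) was 0.75 and -0.85 in R26Y hybrids, between 0.48 and 0.60 in GFAP-Cre hybrids and between 0.55 and 0.99 in pooled unfused cells, and it was between -0.80 and -0.49 in FoxA2-Cre hybrids and between -1.19 and -0.75 in FoxA2-Cre unfused cells. The microglia list, 13 of 14 genes tested, summed to between 6.64 and 7.55 in FoxA2-Cre hybrids and between 4.80 and 5.09 in FoxA2-Cre unfused cells beside the fitted 1.60 for Cd79b and 2.55 for Ebf1, both partly unmeasured. A sum of linear levels follows its brightest genes, and 10 and 6 of the 13 were well above background on these hybrid arrays. The list's median difference there was 0.75 against 0.37 for all genes, with 9 of 13 positive and none past the limma threshold. Neutrophil genes, 14 of 15 tested, summed to between 0.59 and 2.07 in FoxA2-Cre hybrids and between 4.86 and 5.49 in their unfused cells. Of the 14, 3 to 4 were well above background on these hybrid arrays and 7 to 10 on the unfused ones. There 2 genes were lower past the limma threshold, against 0.531% of all genes called in either direction. On the first slide the sums were 0.11 to 1.56 in R26Y hybrids, 1.25 to 1.65 in GFAP-Cre hybrids and 2.16 to 2.70 in pooled unfused cells. T and NK cell genes, 15 of 16 tested, summed to between 2.89 and 3.12 on the first slide, between 3.52 and 4.38 in FoxA2-Cre hybrids and between 3.24 and 3.30 in FoxA2-Cre unfused cells. Of the 15, 7 to 9 were well above background on the FoxA2-Cre hybrid arrays and 10 to 11 on the unfused ones. In R26Y hybrids the microglia list summed to between 3.29 and 5.32, against 3.35 to 3.82 in pooled unfused cells. On R26Y hybrid replicate 2, the array with the low Ebf1 and Ms4a1 values, this list summed to 5.32, against 3.29 on replicate 1. Of its genes, 13 of 13 were well above background on replicate 1 and 10 on replicate 2. In the R26Y comparison 8 of the 13 had positive fitted values, with a median of 0.09 against -0.26 for all genes, and none passed the limma threshold. Genes of plasmacytoid dendritic cells, 7 of 8 tested, summed to between 2.91 and 4.47 in R26Y hybrids, 2.96 and 3.57 in pooled unfused cells, 4.71 and 4.95 in FoxA2-Cre hybrids and 4.06 and 4.24 in their unfused cells. Siglech, which microglia share, was itself at 4.69 and 4.94 in FoxA2-Cre hybrids, where 1 to 4 of the 7 genes were well above background and the list's median difference was 0.10 against 0.37 for all genes. Stem and progenitor genes, 10 of 12 tested, ranged from 0.01 to 4.80 in FoxA2-Cre hybrids, from -0.75 to 0.49 in FoxA2-Cre unfused cells and from 0.26 to 1.29 on the first slide. Of the 10, 4 to 5 were well above background on the FoxA2-Cre hybrid arrays and 6 to 7 on the unfused ones. Astrocyte genes, 8 of 10 tested, summed to between -0.77 and 1.18 in R26Y hybrids, 0.16 and 0.43 in GFAP-Cre hybrids and 0.92 and 1.03 in pooled unfused cells. The sums were between -1.20 and 0.28 in FoxA2-Cre hybrids and between -1.37 and -0.11 in their unfused cells. Of the 8 astrocyte genes, 1 to 3 were well above background on those hybrid arrays and 2 to 3 on the unfused ones. The FoxA2-Cre sums and differences of this list thus rest in large part on spots not above background. The list's median difference was -0.61, -0.58 and 0.53 in R26Y, GFAP-Cre and FoxA2-Cre hybrids, with 1, 1 and 6 of the 8 genes positive and none past the limma threshold.

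Genes with the pattern most like each of the 7 were found by Pearson's r over the 10 arrays after subtraction of each slide's mean, among 20045 genes with a symbol. These correlations share their arrays and depth and are a description. The closest to Ebf1 were Dzank1 (r = 0.99), Olfr860 and Dydc2, and the closest to Ms4a1 were Zc2hc1a (r = 0.99), Reg3g and Rprd1a. For Cd79b they were Mettl9 (r = 0.97), Prkch and Slc5a10, and for Cd79a Olfr629 (r = 0.94), Snapc2 and Ccdc85c. Pax5 was closest to Tnfrsf10b (r = 0.97), Rpusd1 and Tmem234. Igll1 was nearest Lrit1 (r = 0.96), Pcdhb3 and 1700025D23Rik, and Vpreb1 nearest 4930471E19Rik (r = 0.93), Slco5a1 and Prss43. None of the 7 B-lineage genes was among the 3 closest to another of them. With 3 genes kept of 20045, that does not say whether the 7 move together.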

How the data were processed

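Per the file headers, Agilent Feature Extraction 10.7.3.1 made the authors' scanner tables, which hold intensities: a processed signal (background-subtracted and detrended within the array), a mean signal and a local background. Their 0 or 1 spot marks are other values, per the file headers. A matrix of log2 values was also deposited by the authors, and its method, scale and centring are not given in the sources used here; its array medians were 7.42 to 7.46 on the first slide and 6.27 on the FoxA2-Cre slide.

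Of 62976 spots per array, 59305 were not controls. Spots marked non-uniform or as outliers (0.191% to 0.474% per array) were left out, spots of a probe were averaged, and gene symbols were updated through RefSeq accessions (27428 probes matched, 2788 renamed). Probes had to be well above background on 2 arrays or more, and the probe with the highest mean stood for its gene. Levels and scaling are described in the results. Comparisons used limma 3.58.1 in R 4.3.3 (two-sided, moderated, Benjamini-Hochberg over all genes), from 5 group means (5 residual degrees of freedom) or, for all hybrids, with the recipient set as a covariate (7). The scripts were tested on simulated data. No count was available, so precision is limited by the number of arrays, and all samples had a file (0 columns of unmatched samples).

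The 7 genes, the lists and the tests were chosen with earlier results of these data known. By rule, the 7 genes are reported in every comparison, up to 3 genes of smallest p per list and comparison are named, along with the 3 genes of most similar pattern per gene and Ptprc, Kit and Gfap. Alternatives were normexp (offset 50), quantile normalization, the authors' matrix, the percentile over all probes, other probe filters, the mean of probes, probes without shared runs, a replicate block, array weights, fewer arrays in the fit, no recipient term, and leaving out each array. Each probe on its own was added after seeing the data.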

Additional observations from a re-analysis of the deposited data

How the results depend on the processing

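In the alternatives other than leaving out an array, 0 of the 7 genes passed in any comparison, and 33 of 385 fitted differences changed sign, all of them below the threshold (lowest adjusted p with limma 0.360); the cause was not tested. With normexp the FoxA2-Cre differences were 0.73 for Cd79a, 0.051 for Pax5 and 0.70 for Vpreb1, the interactions were 0.99 for Cd79a and 0.052 for Vpreb1, and over all hybrids Cd79a was 0.17, Ms4a1 0.19, Pax5 0.057 and Ebf1 -0.27. With quantile normalization R26Y Cd79a was 0.0052 and Igll1 0.39, and Ebf1 over all hybrids -0.087. With the authors' matrix R26Y Cd79a was 0.034 and Igll1 0.25, FoxA2-Cre Ms4a1 -0.59 and Ebf1 -0.34, the Ms4a1 interaction -0.27 (both Ms4a1 values rest on unmeasured FoxA2-Cre spots), and over all hybrids Cd79b -0.24 and Ebf1 -0.84. With the percentile over all probes R26Y Igll1 was 0.18 and Pax5 over all hybrids 0.012. Averaging the probes of a gene gave R26Y Pax5 -0.22 and a Cd79a interaction of 0.32. With array weights, over all hybrids, Cd79b was -0.21, Igll1 -0.092, Ms4a1 0.11, Pax5 0.017 and Ebf1 -0.15, without the recipient term Ms4a1 was 0.38, and on the first slide alone Cd79b was -0.72, Igll1 -0.23, Pax5 0.073 and Ebf1 -1.70. The scalings moved the median of all genes: in FoxA2-Cre hybrids it was 0.37, but 0.72 with normexp, -0.44 with quantile normalization and -0.50 with the authors' matrix, and in R26Y hybrids -0.26, 0.00, 0.28 and 0.19 in that order.

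Leaving out each array gave 0 to 2 of the 7 genes in the R26Y comparison (2 without R26Y hybrid replicate 1, 0 without replicate 2) and 0 in the others; 28 of 350 such differences changed sign. The ranges of those were, in R26Y hybrids, -5.83 to 0.083 for Ebf1, -0.041 to 0.075 for Pax5 and -5.65 to 0.31 for Ms4a1, in GFAP-Cre hybrids -0.62 to 0.0027 for Igll1, -0.36 to 0.32 for Cd79a and -0.27 to 0.78 for Ms4a1, in FoxA2-Cre hybrids -0.85 to 0.21 for Pax5 and -0.98 to 0.51 for Vpreb1, in the interaction -0.92 to 0.14 for Pax5 and -0.31 to 0.11 for Cd79a, and over all hybrids -0.58 to 0.98 for Ebf1, -0.23 to 0.12 for Pax5, -0.043 to 0.35 for Igll1, -0.18 to 0.65 for Cd79b and -0.62 to 0.75 for Ms4a1. Replicate numbers did not pair the samples (correlations of replicate deviations -0.07 to 0.07), and with them as a replicate block 0 of the 7 genes passed in any comparison. Over all genes, FoxA2-Cre calls went from 171 to 106 and interaction calls from 30 to 0 with that block. The 171 calls became 60 without probes that share 20 bases, 303 with quantile normalization and 0 with only the 4 FoxA2-Cre arrays (1414 at an unadjusted p under 0.05), and the 30 became 5 without shared probes and 91 with the authors' matrix. Signal over background limits the FoxA2-Cre slide, where 3 of the 7 genes on each hybrid array and 2 to 4 on the unfused arrays were well above background.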
